A study of Mus musculus with 9 samples.

Results

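Newly made secretory and membrane proteins enter the endoplasmic reticulum (ER), where they are folded, trimmed and checked, and the transcripts of 35 genes that serve these steps were followed through activation of mouse B cells with and without the monocarboxylate transporter MCT1. The 35 genes were chosen by symbol for their known function, with earlier results of these data known. All 35 were found in the deposited table of 17596 genes. They comprised 11 ER chaperones and co-chaperones, 3 protein disulfide isomerases, 3 subunits of the Sec61 translocon, 4 genes of the signal peptidase complex, 4 of the translocon-associated protein (TRAP) complex, 7 genes of ER-associated degradation (ERAD) and 3 sensors of the unfolded protein response (UPR).

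Primary B cells were taken from spleens of mice that were 6 to 8 weeks old by the study's methods, and their total RNA was sequenced. Control mice carried *Mb1Cre* alone, and *Mct1f/fMb1Cre* mice carried in addition 2 floxed copies of *Mct1*, whose gene symbol is *Slc16a1*. Each genotype was sequenced untreated (day 0, 2 libraries each) and after 3 days of culture with 10 μg/mL lipopolysaccharide (LPS) and 50 ng/mL interleukin 4 (IL-4), with 2 control and 3 *Mct1f/fMb1Cre* libraries on day 3. LPS with IL-4 drives B cells to divide and to switch their antibody class, and the purpose of the study was to learn what MCT1 does in such cells. Cre under the Mb1 (*Cd79a*) promoter acts throughout the B lineage from its early stages, and both genotypes carried this Cre.

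Proteins bound for secretion pass through the Sec61 channel while they are being made, with the TRAP complex beside it, and the signal peptidase complex removes their leading peptide. Chaperones such as BiP and disulfide isomerases then fold them, and ERAD carries those that fail back to the cytosol for destruction. When unfolded proteins build up, the sensors IRE1, ATF6 and PERK start the UPR, and B cells that turn into antibody-secreting cells are known to enlarge this whole apparatus with the help of the factor XBP1.

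Sequences upstream of several members carry the ER stress response element (ERSE), a known binding site of the factors NF-Y and ATF6 or XBP1, made of CCAAT, any 9 bases and CCACG. Promoters in the RefSeq table, from 250 bases before to 50 bases after the annotated start, were at hand for 27 of the 35 members and for 27025 genes in all. Searched on both strands, ERSE was found in 9 of the 27 members (33.3%) and in 37 of all 27025 promoters (0.137%). The matches of the members are given here in the order of their distance from the start, with 5 flanking bases on each side and the CCAAT and CCACG boxes in capitals, read 5′ to 3′ on the strand that carries the match (assembly GRCm38.p6).
Syvn1, plus strand, chr19:6046527-6046555: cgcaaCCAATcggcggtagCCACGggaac
Hspa5, plus strand, chr2:34772020-34772048: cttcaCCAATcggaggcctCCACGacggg
Pdia6, plus strand, chr12:17266486-17266514: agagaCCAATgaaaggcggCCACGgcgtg
Dnajc3, plus strand, chr14:118937822-118937850: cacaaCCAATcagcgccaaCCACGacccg
Hsp90b1, plus strand, chr10:86705528-86705556: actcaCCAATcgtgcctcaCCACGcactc
Creld2, minus strand, chr15:88819515-88819543: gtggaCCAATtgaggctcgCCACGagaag
Canx, minus strand, chr11:50325795-50325823: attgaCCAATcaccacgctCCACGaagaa
Derl3, minus strand, chr10:75893237-75893265: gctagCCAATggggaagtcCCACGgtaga
Calr, plus strand, chr8:84847070-84847098: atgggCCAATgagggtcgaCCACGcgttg
Hsp90b1, minus strand, chr10:86705633-86705661: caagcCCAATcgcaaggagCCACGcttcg
These sequences are shown because the genes that carry them include the main chaperones and, in *Syvn1*, a gene that moved against them. The related ERSE-II, ATTGGNCCACG, whose CCACG box is the same as that of ERSE, was found in 2 other members, *Dnajb11* and *Herpud1* (0.0444% of all promoters).
Dnajb11, plus strand, chr16:22857847-22857867: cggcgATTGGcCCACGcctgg
Herpud1, plus strand, chr8:94386372-94386392: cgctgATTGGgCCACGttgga
The core of the UPR element, TGACGTG, was found in *Hspa5*, away from its ERSE, and in 2.22% of all promoters.
Hspa5, plus strand, chr2:34771928-34771944: agcaaTGACGTGagttg
A match is a description of the letters and not of binding.

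**Figure D1:**
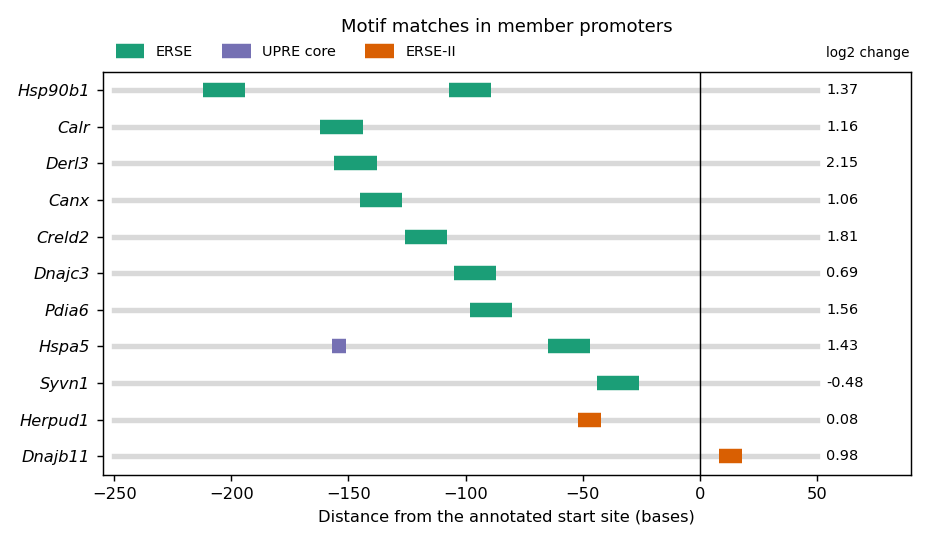
Position of the motif matches along the promoters of the 11 members that had one, with the distance in bases from the annotated start site on the horizontal axis and a bar for each match. The numbers at the right are the log2 change of each gene on activation of *Mb1Cre* B cells, from 2.15 for *Derl3* to -0.48 for *Syvn1*.

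Values are FPKM as the authors deposited them, that is fragments scaled to transcript length and to the mapped fragments of the library, so levels of different genes can be set side by side. They hold no read counts, and the sequencing depth is unknown. The summed FPKM ranged from 477079 to 563586 per library, and libraries of the same group correlated at Pearson r of 0.993 to 0.998 over the genes. Differences were tested with limma on log2(FPKM + 1) over the 10823 genes whose mean reached 1 FPKM, which included all 35 members, and a gene was called at a Benjamini-Hochberg adjusted p under 0.05 with a log2 difference above 0.5 in size. The labels name no mouse for any library, so a p-value measures the spread between libraries, which may be technical.

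The targeted gene was checked first. *Slc16a1* stood at 22.6 and 22.9 FPKM in the control libraries of day 3 and at 10.8, 9.81 and 9.50 FPKM in the *Mct1f/fMb1Cre* libraries, a log2 difference of -1.11 ± 0.07 (SE; limma adjusted p = 9.07e-06). On day 0 it lay between 3.71 and 4.33 FPKM in all 4 libraries, with a difference of -0.05 ± 0.08 (limma adjusted p = 0.84). Fragments from exons outside the floxed stretch count towards these values. The 6 B cell markers summed to between 4183 and 4612 FPKM on day 0 and between 2182 and 2271 FPKM on day 3, and none was at 0. The 8 myeloid markers summed to between 1020 and 1829 FPKM on day 0 and to between 15.5 and 26.2 FPKM on day 3, the 6 T and NK cell markers to between 50.2 and 58.7 and then between 5.92 and 7.46 FPKM, and the 4 erythroid markers to between 84.3 and 153.8 and then between 0.03 and 0.52 FPKM, with *Hbb-bs* at 0 in every library of day 3. The Y-linked *Ddx3y* was at 31.1 FPKM in the first *Mct1f/fMb1Cre* library of day 0, at 0.24 FPKM or less in the other 3 libraries of that day, and between 14.7 and 16.9 FPKM in all 5 of day 3. The first *Mct1f/fMb1Cre* library of day 0 also held the most of the myeloid marker *S100a9*, at 514 FPKM. The control libraries of that day had 166 and 232 FPKM, and the second *Mct1f/fMb1Cre* library 187 FPKM. That first library also enters the genotype comparison of day 0 and the interaction. The part of these cells and of the sex of the mice in these comparisons and in those of the days was not tested. In bulk RNA fewer cells of a type cannot be told apart from less RNA per cell.

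Most of the apparatus stood higher after 3 days of culture with LPS and IL-4, the comparison named activation here. No library was cultured without LPS and IL-4, so stimulation cannot be told apart from the time in culture. In control B cells 28 of the 35 members were called higher on day 3 than on day 0, where 24.8% of all tested genes were, and 1 member was called lower, where 33% of all tested genes were. The median log2 change was 1.16 over the members and -0.12 over all tested genes. Together the 35 genes took 0.508% to 0.524% of the summed FPKM in the 4 libraries of day 0, and 1.01% and 1.02% in the control libraries of day 3. In *Mct1f/fMb1Cre* cells 26 members were called higher, against 23.4% of all genes, and 1 lower, against 33.2%, with a median of 0.99 against -0.14. The members' share of the summed FPKM was 0.953%, 0.910% and 0.922% in the 3 libraries of that group on day 3.

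**Figure D2:**
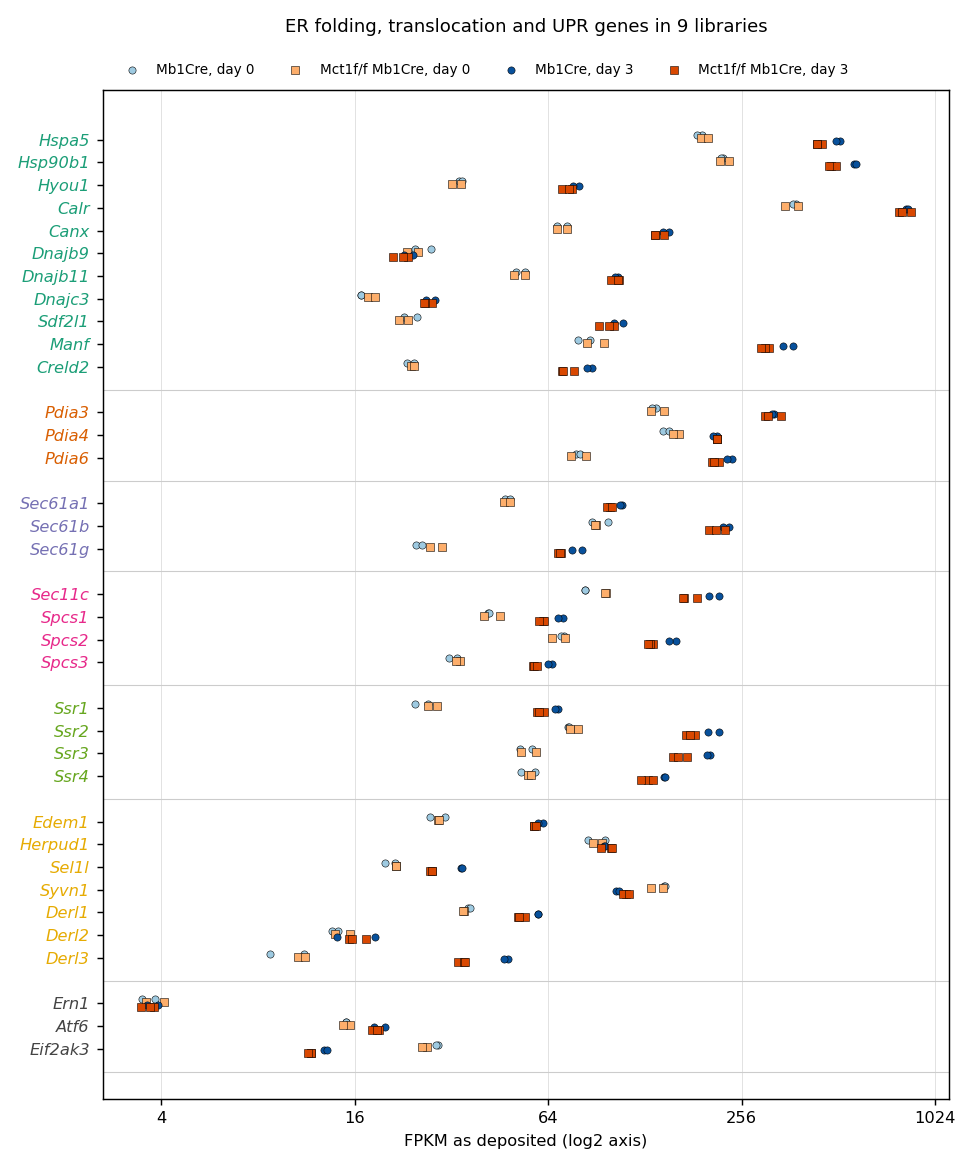
FPKM of each of the 35 members in each of the 9 libraries on a log2 axis, ordered by role, with light symbols for day 0, dark symbols for day 3, circles for *Mb1Cre* and squares for *Mct1f/fMb1Cre*. Most members lie further right on day 3, *Eif2ak3* and *Syvn1* lie further left, and *Ern1* and *Herpud1* overlap between the days.

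The most abundant members were chaperones on both days. *Calr*, the calcium-binding lectin chaperone calreticulin, led the list with a mean of 373 FPKM in control cells on day 0 and 836 FPKM on day 3, and *Hsp90b1* and *Hspa5* came next on both days. At the other end *Ern1* was the lowest member in every group. Within a group the members' coefficient of variation had a median between 2.41% and 4.43%, and the widest spread was that of *Derl2* in the control libraries of day 3 (14.1 and 18.5 FPKM).

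Of the 11 chaperones and co-chaperones, 10 were called higher on activation in both genotypes. *Hspa5*, which encodes BiP, the main Hsp70 of the ER, was at 192 and 186 FPKM in the control libraries of day 0 and at 519 and 505 FPKM in those of day 3. In *Mct1f/fMb1Cre* cells it was at 191 and 202 FPKM and then at 455, 439.6 and 441 FPKM. No library of day 0 reached any of day 3, and the log2 change was 1.43 ± 0.04 in control and 1.18 ± 0.04 in *Mct1f/fMb1Cre* cells (SE; limma adjusted p = 1.48e-10 and 2.92e-10). *Hsp90b1*, the ER Hsp90 known as GRP94, was at 223 and 221 FPKM on day 0, then at 571 and 583 FPKM on day 3 in control cells. The *Mct1f/fMb1Cre* libraries had 219 and 235 FPKM, then 487, 503 and 477 FPKM. Its log2 change was 1.37 ± 0.05 in control and 1.10 ± 0.04 in *Mct1f/fMb1Cre* cells (limma adjusted p = 2.87e-10 and 6.92e-10), again without overlap between the days.

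The steepest rises among the chaperones were those of small soluble proteins. *Sdf2l1*, a partner of ER DnaJ co-chaperones, was at 24.9 and 22.7 FPKM in control and 21.9 and 23.4 FPKM in *Mct1f/fMb1Cre* cells on day 0, and at 109 and 102 FPKM in control and 92.2, 103 and 98.9 FPKM in *Mct1f/fMb1Cre* cells on day 3. The log2 change was 2.11 ± 0.06 and 2.06 ± 0.06 (limma adjusted p = 1.33e-10 and 6.88e-11). *Manf*, an ER-resident factor that binds BiP, was at 86.2 and 79.3 FPKM in control cells on day 0, then at 369 and 343 FPKM on day 3. In *Mct1f/fMb1Cre* cells it was at 84.8 and 95.2 FPKM and then at 312, 302 and 293 FPKM. *Manf* thus stood 4.30-fold higher on day 3 in control and 3.36-fold higher in *Mct1f/fMb1Cre* cells, with log2 changes of 2.09 ± 0.06 and 1.74 ± 0.06 (limma adjusted p = 1.33e-10 and 2.46e-10). *Creld2*, a stress-induced protein with isomerase activity, was at 23.3 and 24.5 FPKM in control cells on day 0 and 87.7 and 84.7 FPKM on day 3, and at 24.0 and 24.5 FPKM and then 70.6, 76.9 and 71.4 FPKM in *Mct1f/fMb1Cre* cells. Its log2 change was 1.81 ± 0.05 and 1.55 ± 0.05 (limma adjusted p = 8.01e-11 and 1.17e-10).

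The other chaperones called higher were *Hyou1*, a large Hsp70 that serves as exchange factor of BiP, the lectin chaperones *Calr* and *Canx*, and the DnaJ co-chaperones *Dnajb11* and *Dnajc3*, whose log2 changes in control cells ran from 0.69 for *Dnajc3* to 1.17 for *Hyou1*. *Dnajb9*, the co-chaperone ERdj4 that holds IRE1 in check, was the exception, with 24.7 and 27.7 FPKM on day 0, then at 22.8 and 24.3 FPKM on day 3 in control cells. Its values did not overlap between the days in control cells, but the log2 change of -0.15 ± 0.07 did not pass the test (limma adjusted p = 0.075), nor did that of -0.11 ± 0.06 in *Mct1f/fMb1Cre* cells (limma adjusted p = 0.13). With every library scaled to a common total both falls passed, at -0.34 and -0.28 (limma adjusted p = 0.00083 and 0.0017), and without the first control library of day 0 the fall in control cells passed at -0.23 (limma adjusted p = 0.019).

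Disulfide isomerases form and reshuffle the cysteine bonds that hold antibody chains together. All 3 were called higher in control cells, and *Pdia4*, at a log2 change of 0.50 ± 0.04, lay just past the limit and in *Mct1f/fMb1Cre* cells, at 0.43 ± 0.04, just short of it. *Pdia6* was at 78.0 and 80.3 FPKM on day 0, then at 239 and 231 FPKM on day 3 in control cells, and at 75.2 and 83.9 FPKM and then 218, 207 and 209 FPKM in *Mct1f/fMb1Cre* cells. Its log2 change was 1.56 ± 0.05 and 1.40 ± 0.05 (limma adjusted p = 3.69e-10 and 3.74e-10). *Pdia3*, which works with the lectin chaperones on glycoproteins, was at 139 and 134 FPKM on day 0, then at 323 and 319 FPKM on day 3 in control cells, and at 133 and 146 FPKM and then 339, 303 and 309 FPKM in *Mct1f/fMb1Cre* cells. It changed by 1.23 ± 0.06 and 1.18 ± 0.06 (limma adjusted p = 6.43e-09 and 3.93e-09), and the genotypes overlapped on both days.

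The 11 genes of the entry route, that is Sec61, signal peptidase and TRAP, were all called higher in both genotypes. Of all tested genes 24.8% were called higher in control and 23.4% in *Mct1f/fMb1Cre* cells. *Sec61g*, the small gamma subunit of the channel, was at 24.9 and 26.0 FPKM on day 0, then at 81.5 and 76.0 FPKM on day 3 in control cells. The *Mct1f/fMb1Cre* libraries stood at 27.4 and 30.0 FPKM and then at 70.2, 68.8 and 69.8 FPKM. The log2 change was 1.59 ± 0.05 in control and 1.25 ± 0.05 in *Mct1f/fMb1Cre* cells (limma adjusted p = 2.94e-10 and 8.73e-10). *Sec61b*, the beta subunit, was at 87.3 and 98.3 FPKM on day 0, then at 233 and 225 FPKM on day 3 in control cells, and at 89.99 and 89.7 FPKM and then 202, 227 and 213 FPKM in *Mct1f/fMb1Cre* cells. It changed by 1.30 ± 0.06 and 1.24 ± 0.06 (limma adjusted p = 5.77e-09 and 3.56e-09). The channel subunit itself, *Sec61a1*, changed by 1.16 ± 0.04 and 1.04 ± 0.04.

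In the signal peptidase complex the largest change was that of *Sec11c*, a catalytic subunit. It was at 83.3 and 83.1 FPKM in control and 96.9 and 96.0 FPKM in *Mct1f/fMb1Cre* cells on day 0, and at 218 and 203 FPKM in control and 187, 169 and 168 FPKM in *Mct1f/fMb1Cre* cells on day 3. The *Mct1f/fMb1Cre* libraries were thus the higher pair on day 0 and the lower group on day 3, without overlap on either day. Its log2 change on activation was 1.33 ± 0.06 in control and 0.85 ± 0.05 in *Mct1f/fMb1Cre* cells (limma adjusted p = 1.54e-09 and 2.75e-08). *Spcs2*, an accessory subunit, was at 71.8 and 70.1 FPKM on day 0, then at 159.8 and 152 FPKM on day 3 in control cells, and at 65.7 and 72.3 FPKM and then 136, 132 and 131 FPKM in *Mct1f/fMb1Cre* cells. It changed by 1.12 ± 0.05 and 0.94 ± 0.05 (limma adjusted p = 3.28e-09 and 6.33e-09). The accessory subunits *Spcs1* and *Spcs3* changed by 0.73 and 0.99 in control and by 0.51 and 0.77 in *Mct1f/fMb1Cre* cells on the log2 scale.

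The 4 TRAP genes, whose products assist some signal peptides at the channel, changed by 1.36 to 1.87 on the log2 scale in control cells and by 1.08 to 1.54 in *Mct1f/fMb1Cre* cells. *Ssr3* was at 56.8 and 52.4 FPKM on day 0, then at 204 and 200.1 FPKM on day 3 in control cells, a rise of 1.87 ± 0.06 (limma adjusted p = 2.92e-10). In *Mct1f/fMb1Cre* cells it was at 58.6 and 52.7 FPKM and then 173, 157 and 162 FPKM, a rise of 1.54 ± 0.06 (limma adjusted p = 5.84e-10). *Ssr2* was at 73.8 and 74.5 FPKM on day 0, then at 217 and 201 FPKM on day 3 in control cells, and at 75.0 and 79.1 FPKM and then 184, 172 and 176 FPKM in *Mct1f/fMb1Cre* cells, with log2 changes of 1.48 ± 0.05 and 1.19 ± 0.05 (limma adjusted p = 3.19e-10 and 7.86e-10).

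ERAD genes went several ways. *Derl3*, a membrane protein of the export machinery, rose more than any other member in control cells, from 8.74 and 11.1 FPKM on day 0 to 48.0 and 46.7 FPKM on day 3. The rise in *Mct1f/fMb1Cre* cells was from 10.7 and 11.2 FPKM to 33.5, 34.98 and 35.2 FPKM. These were rises of 4.77-fold and 3.16-fold in mean FPKM, or 2.15 ± 0.08 and 1.58 ± 0.08 on the log2(FPKM + 1) scale (limma adjusted p = 8.61e-10 and 4.77e-09). *Edem1*, which picks out misfolded glycoproteins, was at 30.5 and 27.4 FPKM on day 0, then at 61.5 and 59.4 FPKM on day 3 in control cells, and at 29.1 and 29.4 FPKM and then 57.7, 57.7 and 58.5 FPKM in *Mct1f/fMb1Cre* cells. It changed by 1.04 ± 0.05 and 0.96 ± 0.05 (limma adjusted p = 6.34e-09 and 5.02e-09).

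*Sel1l*, the scaffold of the main ERAD ubiquitin ligase, was at 21.3 and 19.9 FPKM in control and 21.4 and 21.5 FPKM in *Mct1f/fMb1Cre* cells on day 0. On day 3 it was at 34.2 and 34.5 FPKM in control and 27.9, 27.4 and 27.9 FPKM in *Mct1f/fMb1Cre* cells. Its log2 change was 0.71 ± 0.05 in control cells and 0.35 ± 0.04 in *Mct1f/fMb1Cre* cells (limma adjusted p = 7.21e-08 and 1.27e-05), so it passed the limit of 0.5 in the former alone. *Derl1*, a relative of *Derl3*, was at 36.1 and 36.6 FPKM and then 59.5 and 59.5 FPKM in control cells, and at 35.05 and 34.6 FPKM and then 51.5, 54.2 and 51.9 FPKM in *Mct1f/fMb1Cre* cells. It changed by 0.69 ± 0.04 and 0.58 ± 0.04 (limma adjusted p = 3.84e-08 and 7.84e-08).

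*Syvn1*, the ubiquitin ligase HRD1 that *Sel1l* holds, was singled out after its values were seen, because it fell while its partner rose. It was at 147 and 147 FPKM on day 0, then at 104 and 106 FPKM on day 3 in control cells, and at 133 and 146 FPKM and then 112, 109.8 and 114 FPKM in *Mct1f/fMb1Cre* cells. The fall was -0.48 ± 0.05 and -0.32 ± 0.04 on the log2 scale (limma adjusted p = 2.83e-06 and 4.32e-05), past the adjusted p but not the limit of 0.5, and the days did not overlap. Exons of *Syvn1* overlap those of *Mrpl49* on the opposite strand, and whether counting used strand was not given in the sources used here. The same holds for *Derl2*, *Manf*, *Pdia3*, *Pdia6*, *Spcs1* and *Spcs3* and their neighbours, and for *Manf* the neighbour *Rbm15b* lies on the same strand. *Herpud1* and *Derl2* overlapped between the days and did not pass the test in either genotype (limma adjusted p between 0.089 and 0.24). Both passed as higher in both genotypes with median-of-ratios scaling, at log2 changes between 0.21 and 0.32 (limma adjusted p between 0.0023 and 0.024). In control cells *Herpud1* passed at 0.16 without the second control library of day 0 and *Derl2* at 0.39 without the first control library of day 3, and in *Mct1f/fMb1Cre* cells *Herpud1* passed at 0.11 without either control library of day 0 and at 0.14 without the first *Mct1f/fMb1Cre* library of day 3.

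The members include 3 sensors of unfolded protein. *Ern1*, which encodes IRE1, the kinase and nuclease that splices *Xbp1* transcripts, was at 3.82 and 3.49 FPKM in control and 4.07 and 3.58 FPKM in *Mct1f/fMb1Cre* cells on day 0, and at 3.62 and 3.91 FPKM in control and 3.80, 3.46 and 3.68 FPKM in *Mct1f/fMb1Cre* cells on day 3. All 4 groups overlapped, and the changes of 0.03 ± 0.08 and -0.05 ± 0.08 did not pass (limma adjusted p = 0.71 and 0.52). With quantile normalization alone they were 0.36 and 0.33 and passed the adjusted p (limma, 0.0011 and 0.0010). *Atf6*, a membrane-bound factor released by proteolysis, was at 15.0 and 15.0 FPKM on day 0, then at 18.3 and 19.9 FPKM on day 3 in control cells, and at 15.5 and 14.8 FPKM and then 19.1, 18.1 and 18.8 FPKM in *Mct1f/fMb1Cre* cells. Its small rise of 0.33 ± 0.06 and 0.28 ± 0.05 passed the adjusted p (limma, 0.000222 and 0.000317) and not the limit of 0.5, and with every library scaled to a common total it was 0.14 and 0.12 and no longer passed (limma adjusted p = 0.080 and 0.099).

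*Eif2ak3*, which encodes PERK, the sensor that slows translation, was the member called lower. It was at 29.1 and 28.6 FPKM in control and 26.9 and 25.9 FPKM in *Mct1f/fMb1Cre* cells on day 0, and at 12.9 and 13.1 FPKM in control and 11.7, 11.7 and 11.4 FPKM in *Mct1f/fMb1Cre* cells on day 3. The level on day 3 was 45.0% of that on day 0 in control and 44.0% in *Mct1f/fMb1Cre* cells, and the log2 change was -1.10 ± 0.05 and -1.12 ± 0.04 (limma adjusted p = 2.12e-09 and 7.90e-10). The order of the sensors was thus *Eif2ak3*, *Atf6* and *Ern1* on day 0, and *Atf6*, *Eif2ak3* and *Ern1* on day 3, without overlap between neighbours in that order in any group.

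The change on activation was of similar order in both genotypes. Over the 35 members the log2 changes of the 2 genotypes, which come from different libraries, correlated at Pearson r of 0.982 and Spearman rho of 0.966 across genes, which are not independent of each other. For 30 of the 35 members the change was smaller or more negative in *Mct1f/fMb1Cre* cells.

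**Figure D3:**
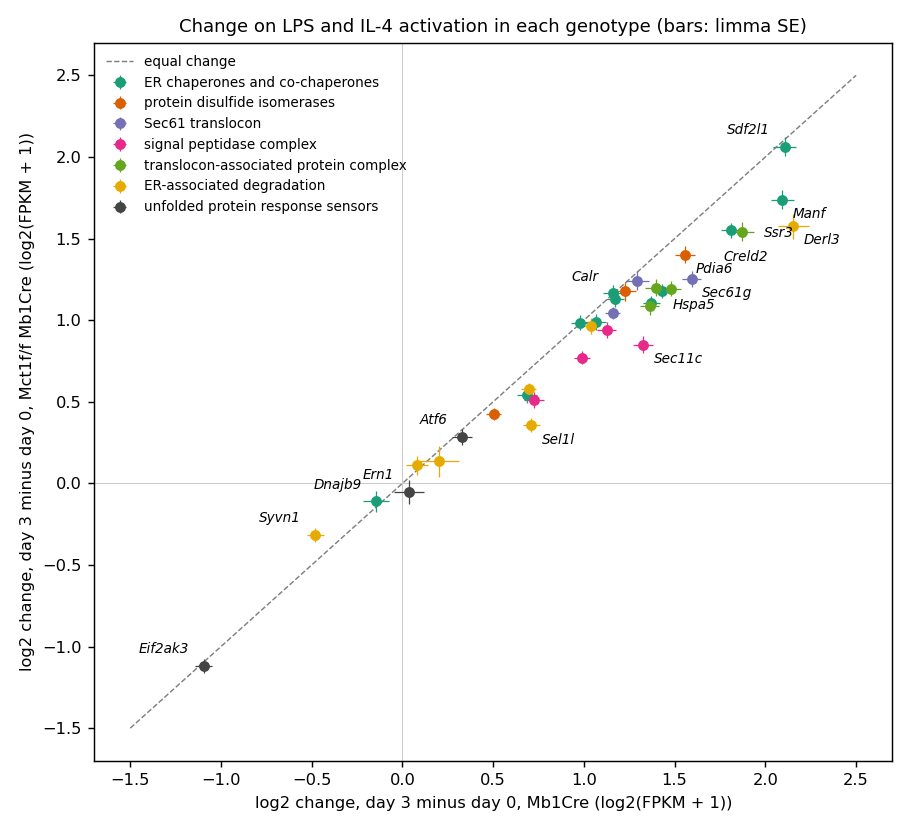
Log2 change from day 0 to day 3 of the 35 members in *Mb1Cre* cells (horizontal) and *Mct1f/fMb1Cre* cells (vertical), coloured by role, with limma standard errors as bars and a dashed line of equal change. Most points lie below the line, and *Derl3*, *Sec11c* and *Sel1l* lie furthest from it.

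Members with and without an ERSE match were set side by side on activation, as a description. Of the 9 with a match, 8 were called higher in control cells, with a median log2 change of 1.37, and *Syvn1* fell. Of the 18 members whose promoter in the table held no ERSE, 13 were called higher, with a median of 1.01, and their range of -1.10 to 2.11 overlapped that of the first set. *Sdf2l1*, at 2.11, had no match in its window.

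Scaling set the level against which these changes are read. With the values as deposited, 42.9% of all genes called in control cells were called higher, and this share was 32% with libraries scaled to a common total, 50.2% with median-of-ratios scaling and 51.3% with quantile normalization, where the median of all tested genes was -0.31, -0.01 and 0.02. Under the same 4 scalings 28, 25, 28 and 27 members were called higher and 1, 2, 1 and 2 lower.

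The question of the study was what differs in activated B cells that lack *Mct1*. On day 3 no member was called different between the genotypes by limma, where 2.42% of all tested genes were, and 19 of the 35 had an unadjusted p under 0.05. Without the limit on the fold, 17 of the 35 passed the adjusted p, all of them lower in *Mct1f/fMb1Cre* cells, where 9.21% of all tested genes passed as lower and 6.03% as higher. In sign 32 of 35 members were lower, with a median log2 difference of -0.15 over the members and -0.01 over all tested genes, and for 21 members every *Mct1f/fMb1Cre* library lay below every control library, as for 26.1% of all genes. All 4 signal peptidase and all 4 TRAP genes were among the 17, with 4 of the 11 chaperones (*Hspa5*, *Hsp90b1*, *Manf* and *Creld2*), 3 of the 7 ERAD genes (*Sel1l*, *Derl1* and *Derl3*), *Sec61g* and *Eif2ak3*, and none of the 3 disulfide isomerases. With median-of-ratios scaling *Sec61g*, *Spcs1*, *Ssr1*, *Ssr4* and *Eif2ak3* no longer passed (limma adjusted p between 0.060 and 0.082). With quantile normalization *Sec61g*, *Spcs1*, *Spcs3*, *Ssr1* and *Eif2ak3* no longer passed (limma adjusted p between 0.052 and 0.086). With every library scaled to a common total *Spcs3*, *Ssr1* and *Eif2ak3* no longer passed (limma adjusted p between 0.060 and 0.12). Neither complex passed whole under any of these scalings.

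Among single libraries left out, the count depended most on 1 of the control libraries of day 3. Without the first of these, 3 of the 17 still passed (*Derl3*, *Hsp90b1* and *Sel1l*), and without the second 10. Without any 1 of the 3 *Mct1f/fMb1Cre* libraries of day 3 the count was 11 each time, and every member that passed in any of these fits was lower in *Mct1f/fMb1Cre* cells.

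**Figure D4:**
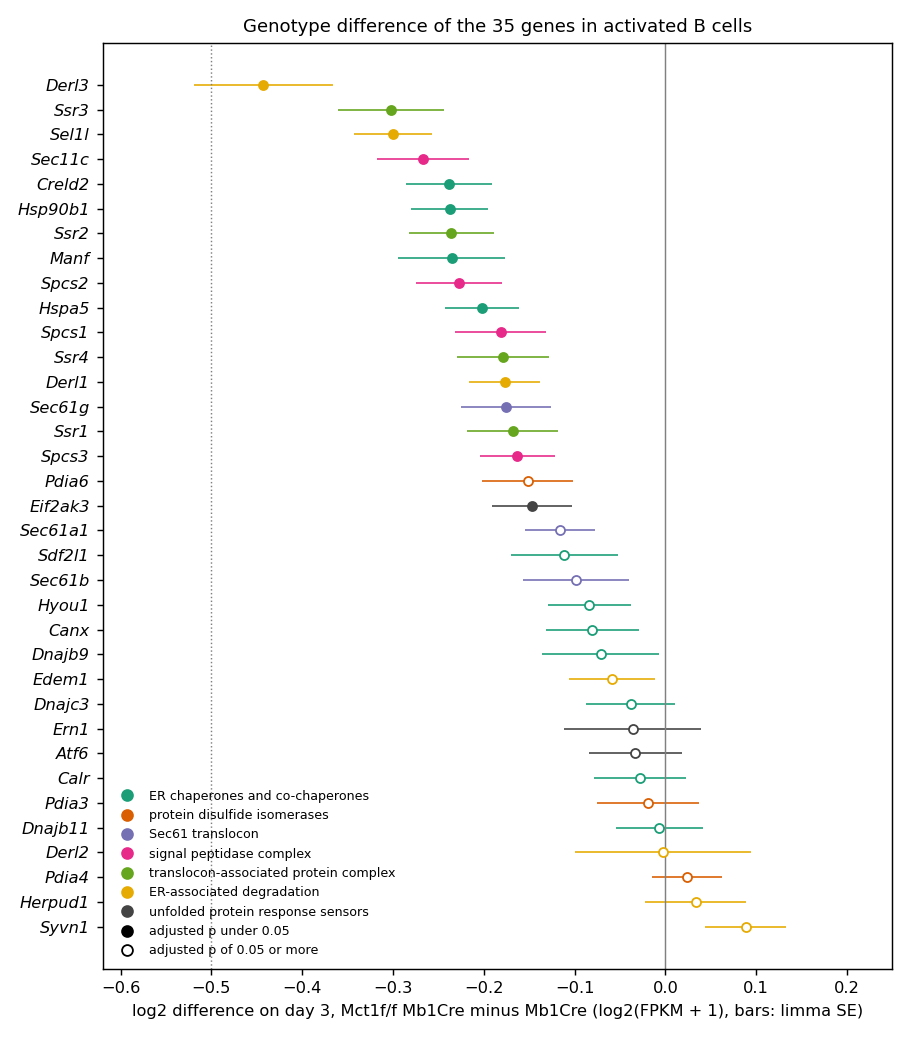
Log2 difference between the genotypes on day 3 for each of the 35 members, ordered by size and coloured by role, with limma standard errors as bars and the limit of -0.5 as a dotted line. Filled points passed the adjusted p of 0.05, and 32 of 35 points lie left of 0 without reaching the limit.

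*Derl3* differed most between the genotypes on day 3. Its level in *Mct1f/fMb1Cre* cells was 73.0% of control (34.6 ± 0.94 against 47.3 ± 0.91 FPKM, SD, n = 3 and 2 libraries), a log2 difference of -0.44 ± 0.08 (SE; limma adjusted p = 0.0034). The gene lies on the plus strand at chr10:75893413-75895941 (GRCm38). *Sel1l*, on the minus strand at chr12:91806043-91849157, was at 80.7% of control (27.7 ± 0.30 against 34.4 ± 0.23 FPKM), a difference of -0.30 ± 0.04 (limma adjusted p = 0.0012). Its libraries lay close together within each group, and the genotypes did not overlap. *Syvn1*, its partner, was at 106% of control, a difference of 0.09 ± 0.04 that did not pass (limma adjusted p = 0.22).

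*Ssr3* stood at 81.1% of control (-0.30 ± 0.06, limma adjusted p = 0.0061), *Ssr2* at 84.8% (-0.24 ± 0.05, 0.0070), *Ssr4* at 88.3% (-0.18 ± 0.05, 0.039) and *Ssr1* at 88.8% (-0.17 ± 0.05, 0.046). *Sec11c* stood at 83.1% (-0.27 ± 0.05, limma adjusted p = 0.0058) and *Spcs2* at 85.3% (-0.23 ± 0.05, 0.0091), followed by *Spcs1* and *Spcs3* at 88.0% and 89.1%. The TRAP and signal peptidase genes thus all lay within a range of 81.1% to 89.1% of control. Among the translocon genes *Sec61g* stood at 88.4% (-0.18 ± 0.05, limma adjusted p = 0.038), while *Sec61a1* at 92.2% and *Sec61b* at 93.5% did not pass.

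Chaperones fell into those that differed and those that did not pass. *Creld2* was at 84.6% of control (-0.24 ± 0.05, limma adjusted p = 0.0073), *Hsp90b1* at 84.8% (-0.24 ± 0.04, 0.0040), *Manf* at 84.9% (-0.24 ± 0.06, 0.022) and *Hspa5* at 86.9% (-0.20 ± 0.04, 0.0079). *Calr*, the most abundant member, was at 98.2% of control (-0.03 ± 0.05, limma adjusted p = 0.79) and *Dnajb11* at 99.6% (-0.01 ± 0.05, 0.95), and *Canx*, *Hyou1*, *Dnajb9*, *Dnajc3* and *Sdf2l1* lay between 92.5% and 97.3% without passing. Of the 9 members with an ERSE match 4 passed as lower, and of the 18 without a match 8 did.

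The genotypes were also compared in naive cells. On day 0 no member was called and none passed the adjusted p by limma, where 0.277% of all tested genes were called and 0.416% passed, and 4 of 35 members had an unadjusted p under 0.05. The median difference was 0.02, 23 members were higher and 12 lower in *Mct1f/fMb1Cre* cells, and the differences ran from -0.12 to 0.21 on the log2 scale. The largest was that of *Sec11c*, higher in both *Mct1f/fMb1Cre* libraries.

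The difference between the days was tested by the interaction of genotype and day. *Derl3* was the 1 member called, with an interaction of -0.58 ± 0.11 (limma adjusted p = 0.012), where 3.23% of all tested genes were called. Without the limit on the fold 12 of 35 members passed, all with a more negative genotype difference on day 3, where 5.61% of all tested genes passed in that direction. The interaction uses the same libraries of day 3 as the genotype comparison of that day. The smallest p-values were those of *Sec11c* (-0.48 ± 0.08, limma adjusted p = 0.0048) and *Sel1l* (-0.36 ± 0.06, 0.0084), followed by *Derl3*, *Sec61g* (-0.34 ± 0.07, 0.018) and *Hsp90b1* (-0.27 ± 0.06, 0.027).

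*Sec11c* and *Sel1l* passed with every library left out in turn. Of the 12 members, 2 still passed without the first control library of day 3, 5 without the second and 5 without the second control library of day 0. Without the second *Mct1f/fMb1Cre* library of day 0 the count was 4, and without the second or the third *Mct1f/fMb1Cre* library of day 3 it was 6 and 4. *Derl3* was no longer called without the first control library of day 0, where its interaction was -0.42, nor without the first of day 3, where its adjusted p was 0.056. The first of these libraries held the lowest *Derl3* value of all 9, 8.74 FPKM.

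**Figure D5:**
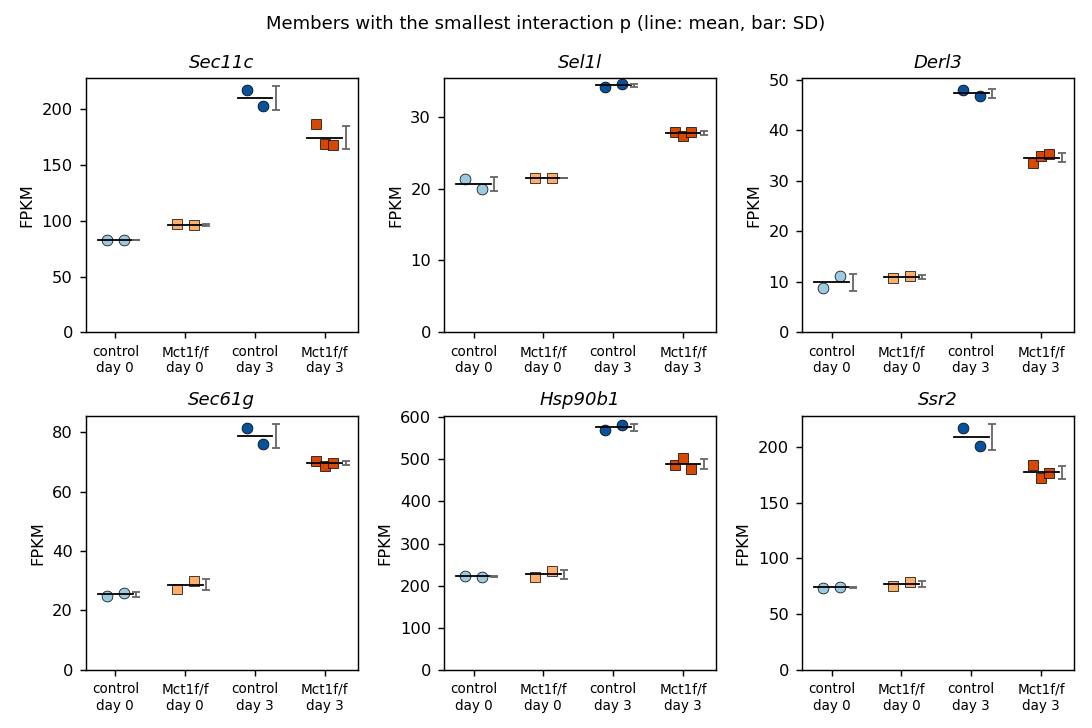
FPKM in each library of the 6 members with the smallest interaction p, with symbols for single libraries, a line at the group mean and a bar of 1 SD, and the vertical axis starting at 0. In every panel the control libraries of day 3 lie above the *Mct1f/fMb1Cre* libraries of that day.

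Plasma cell genes were measured beside these, and of the 5 markers tested 3 passed as lower in *Mct1f/fMb1Cre* cells on day 3. The 6 plasma cell markers summed to 270 to 280 FPKM in control and 328 to 373 FPKM in *Mct1f/fMb1Cre* cells on day 0, and to 979.9 to 1041 FPKM in control and 725 to 749 FPKM in *Mct1f/fMb1Cre* cells on day 3, and none was at 0 in all libraries of a group. Most of the sum on day 3 was *Mzb1*, itself an ER co-chaperone of B cells, at 823 and 775 FPKM in control and 582, 574 and 577 FPKM in *Mct1f/fMb1Cre* cells (-0.47 ± 0.04, limma adjusted p = 4.05e-05). The marker *Irf4*, a factor of B cell activation and plasma cell fate, differed by -0.49 ± 0.04 and *Jchain*, the joining chain of secreted antibody, by -0.47 ± 0.13. The other 2 tested markers were higher in *Mct1f/fMb1Cre* cells on day 3 without overlap, and did not pass the adjusted p. *Prdm1*, the factor that sets the plasma cell program, was at 8.41 and 8.39 FPKM in control and between 9.34 and 10.01 FPKM in *Mct1f/fMb1Cre* cells. *Sdc1* was at 2.54 and 2.29 FPKM in control and 3.21, 2.65 and 2.67 FPKM in *Mct1f/fMb1Cre* cells. The myeloid markers summed to 15.5 to 17.3 FPKM in control and 23.1 to 26.2 FPKM in *Mct1f/fMb1Cre* cells on day 3. The part of these cells in the lower levels of the ER genes was not tested.

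A further 66 genes of the pathway, listed by function with earlier results of these data known, were followed in the same fits. On activation of control cells 30 of the 66 were called higher and 3 lower, beside 24.8% and 33% of all tested genes, and in *Mct1f/fMb1Cre* cells 26 and 3, beside 23.4% and 33.2%. *Xbp1*, the factor that IRE1 activates by splicing, was at 61.5 and 64.4 FPKM on day 0, then at 255.9 and 252 FPKM on day 3 in control cells, and at 66.2 and 65.6 FPKM and then 241, 236 and 230.3 FPKM in *Mct1f/fMb1Cre* cells. It rose by 2.00 ± 0.04 and 1.82 ± 0.04 on the log2 scale (limma adjusted p = 1.08e-11 and 9.48e-12), and its genotype difference of -0.11 ± 0.04 on day 3 did not pass (limma adjusted p = 0.088). Gene-level FPKM do not separate the spliced from the unspliced *Xbp1* transcript.

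Transcripts of factors known to lie downstream of PERK were also followed. Their levels do not show whether PERK was active, and its part in their changes was not tested. *Atf4*, the factor made when translation slows, was at 159 and 155 FPKM on day 0, then at 291 and 276 FPKM on day 3 in control cells, and at 148 and 155 FPKM and then 274, 279 and 269.9 FPKM in *Mct1f/fMb1Cre* cells, a rise of 0.85 ± 0.04 in both. *Ddit3*, the stress factor CHOP, was at 22.7 and 23.9 FPKM and then 33.5 and 32.7 FPKM in control cells, and at 22.5 and 21.8 FPKM and then 20.98, 26.8 and 25.4 FPKM in *Mct1f/fMb1Cre* cells. *Ddit3* rose by 0.49 ± 0.09 in control cells (limma adjusted p = 0.00038), and its change of 0.13 ± 0.08 in *Mct1f/fMb1Cre* cells did not pass (limma adjusted p = 0.18). On day 3 it differed by -0.43 ± 0.08 between the genotypes (limma adjusted p = 0.0058), and the interaction of -0.37 ± 0.12 did not pass (limma adjusted p = 0.091). *Trib3*, a target of these factors, rose from 0.72 and 0.60 FPKM to 20.1 and 18.6 FPKM in control cells and from 0.19 and 0.55 FPKM to 12.5, 15.8 and 14.8 FPKM in *Mct1f/fMb1Cre* cells, the largest change among the 66 genes at 3.61 ± 0.13 and 3.50 ± 0.12.

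In each of the other lists the strongest rise and fall in control cells were as follows. Among oxidative folding genes the peroxiredoxin *Prdx4* rose by 1.98 ± 0.10 (limma adjusted p = 5.32e-09) and the isomerase *Pdia5* changed by -1.45 ± 0.11 (2.04e-07), from 2.29 and 2.35 FPKM to 0.17 and 0.26 FPKM. Among targeting and translocation genes *Srp19* of the signal recognition particle rose by 1.04 ± 0.06 (limma adjusted p = 1.05e-08), while *Sec62*, a translocation factor beside Sec61, changed by -0.08 ± 0.06 without passing. Among oligosaccharyltransferase genes, which attach sugar chains to entering proteins, *Rpn1* rose by 1.62 ± 0.04 (limma adjusted p = 3.55e-11) and *Tusc3* changed by -0.33 ± 0.08 (0.0018). *Lman1*, a cargo receptor for export, rose by 2.02 ± 0.05 (limma adjusted p = 4.15e-11), and its partner *Mcfd2* changed by -0.28 ± 0.08 (0.0066). Of the other ERAD factors *Selenos* rose by 1.25 ± 0.06 (limma adjusted p = 4.59e-09) and *Herpud2* changed by -0.90 ± 0.06 (5.44e-08). *Mbtps1*, a protease that takes part in the release of ATF6, changed by -0.53 ± 0.04 (limma adjusted p = 5.71e-07).

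On day 3 none of the 66 was called between the genotypes by limma, beside 2.42% of all tested genes, and 35 had an unadjusted p under 0.05. The adjusted p was passed by 24, all lower in *Mct1f/fMb1Cre* cells, beside 9.21% of all tested genes as lower and 6.03% as higher. These values come from the same libraries as those of the 35 members. The alternatives and the fits without single libraries were examined for the members alone. How far the results of the 66 genes depend on them was not tested. The median difference was -0.13, and 57 of 66 were lower in sign. *Sec62* was at 26.3 and 27.5 FPKM in control and 21.6, 21.3 and 19.5 FPKM in *Mct1f/fMb1Cre* cells on day 3, with no overlap (-0.36 ± 0.05, limma adjusted p = 0.0016). It was at 27.6 and 29.5 FPKM in control and 30.9 and 30.7 FPKM in *Mct1f/fMb1Cre* cells on day 0, and its interaction was -0.46 ± 0.08 (limma adjusted p = 0.0068). For *Lman1*, at 53.7 and 49.5 FPKM in control and 42.8, 41.7 and 40.7 FPKM in *Mct1f/fMb1Cre* cells on day 3, the difference was -0.30 ± 0.05 (limma adjusted p = 0.0023).

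The 35 members lie on 18 chromosomes, with at most 4 on any of them, and no chromosome holds a whole complex.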

How the data were processed

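RNA sequencing libraries of splenic B cells (9 libraries, 4 groups) were grouped by their labels. What the authors deposited is a table of FPKM per gene. The submitters' processing notes name Bowtie2, GRCm38 and mm10, and the quantifier and annotation are not given in the sources used here. The labels name TRNzol for RNA extraction and the study's methods an RNeasy kit. FPKM are normalized by the authors to gene length and mapped fragments, hold no counts, and leave the depth unknown, so no counting interval was given and precision rests on the 2 or 3 libraries of a group. A further control library of day 3 appears in the study's supplementary list but is not among the 9 libraries available here.

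The test scale was log2(FPKM + 1) with no scaling of the libraries, and this scale understates changes of low genes. The 10823 of 17596 genes whose mean reached 1 FPKM entered limma 3.58.1 (R 4.3.3), fitted with a mean per group, a trend and Benjamini-Hochberg adjustment over all of them. The code was tested on simulated data. Contrasts were day 3 minus day 0 in each genotype, *Mct1f/fMb1Cre* minus *Mb1Cre* on each day, and their interaction. The members and gene lists were chosen with earlier results of these data known. Values in every library are given for the sensors, for the 2 members of each list with the largest change on activation of control cells, for at most 12 members past the adjusted p for genotype or interaction (of 17), for *Xbp1*, *Atf4* and *Ddit3*, and, among the other genes of the pathway, changes for the strongest rise and fall of each list. Other genes were named after their values were seen. *Srpra* was listed as Srpr.

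Alternatives were pseudocounts of 0.1 and 5, no filter or a filter at a mean of 5 FPKM, quantile normalization, median-of-ratios scaling, equal library totals, fits on the compared groups alone, a replicate block, no trend, log2 limits of 1 and none, and each library left out. Promoters came from RefSeq (GRCm38.p6) and gene positions from GENCODE M21 (GRCm38). Exons that overlap other genes were found in the latter. Python 3.11.15 and matplotlib 3.10.9 were used for tables and figures.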

Additional observations from a re-analysis of the deposited data

Results flagged for a closer look

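For 12 members the genotype difference (*Mct1f/fMb1Cre* minus *Mb1Cre*) itself differed between day 3 and day 0 by the limma interaction term at an adjusted p under 0.05, and in all 12 it was more negative on day 3. On the log2(FPKM + 1) scale the interaction was -0.58 for *Derl3*, -0.48 for *Sec11c*, -0.36 for *Sel1l*, -0.35 for *Manf*, -0.34 for *Sec61g* and -0.33 for *Ssr3*. It was -0.29 for *Ssr2*, -0.28 for *Ssr1*, -0.27 for *Hsp90b1*, -0.26 for *Creld2*, -0.25 for *Hspa5* and -0.22 for *Spcs3*. No group had more than 3 libraries, so single libraries were not tested as standing apart.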

How the results depend on the processing

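With each alternative but the limits on the fold, and with each library left out, between 24 and 29 members were called on activation in each genotype. On day 3 no member was called between the genotypes under any alternative except without a limit on the fold, where 17 were. Of the members past the adjusted p alone for genotype on day 3 (17), 10 remained past it without the trend and 12 without the filter. With median-of-ratios scaling or quantile normalization 12 remained, and with a common total 14. With any 1 of the 3 *Mct1f/fMb1Cre* libraries of day 3 left out 11 remained. The fits without a control library of day 3 are given above. None of the 17 changed sign under any alternative. For the interaction 1 member was called, against 0 without the filter, 2 with quantile normalization, 0 at a log2 limit of 1, 12 without a limit, and 0 to 2 with 1 library left out (0 without the first control library of either day, 2 without the second control or the first *Mct1f/fMb1Cre* library of day 3). Of its 12 members past the adjusted p, 3 remained past it without the filter, 4 without the trend, 7 with quantile normalization and 8 with a common total, and *Sec11c* and *Sel1l* under every alternative. The cause of these changes was not tested.

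Genes that changed sign were ones that had not passed as reported. On activation of control cells *Herpud1* was -0.12 with a common total and -0.076 with quantile normalization, *Ern1* was -0.13 with a common total, 0.36 with quantile normalization (limma adjusted p = 0.0011), and with single libraries left out *Herpud1* ranged from -0.0042 to 0.16 and *Ern1* from -0.017 to 0.085. In *Mct1f/fMb1Cre* cells *Herpud1* was -0.067 with a common total and -0.064 with quantile normalization, *Derl2* was -0.034 with a common total, *Dnajb9* was 0.028 with median-of-ratios scaling, and *Ern1* was 0.059 with that scaling, 0.33 with quantile normalization (limma adjusted p = 0.0010) and from -0.13 to 0.020 with single libraries left out.

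Deviations of same-numbered libraries from their group means correlated at -0.12 to 0.06. In a group of 2 libraries the deviations mirror each other, so these correlations cannot show whether same numbers share a mouse or a batch. With the number as a replicate block 29 and 27 members were called on activation, 0 for genotype on either day and 1 for the interaction. Under the block 4 of the 12 members stayed past the adjusted p for the interaction, *Derl2* passed on activation of control cells (0.20, limma adjusted p = 0.033), and 7 passed the adjusted p alone on day 3, where the third *Mct1f/fMb1Cre* library has a number of its own. With the *Mb1Cre* numbers crossed, chosen after seeing the data, 29 were called.

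With quantile normalization *Derl2* passed on activation, at 0.34 in control and 0.28 in *Mct1f/fMb1Cre* cells (limma adjusted p = 0.0089 and 0.016).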
